A study of Mus musculus with 2 samples.

Results

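The Prox1+ venous-like endothelial cells of the neonatal mouse mesentery are cells within venous limits that carry transcripts of Prox1. This transcription factor gives and keeps lymphatic endothelial identity. The cells had far lower levels of most lymphatic effector genes than lymphatic cells, from which the limits set them apart by other lymphatic genes. They were picked cell by cell from measured UMIs (unique molecular identifiers, each of which marks 1 captured RNA molecule), in both libraries by the same limits. A cell needed at least 2000 UMIs, at most 10% mitochondrial UMIs, at least 2 UMIs of Cdh5, an endothelial cadherin, at most 2 of the cycle genes Mki67 and Top2a together, at least 2 of Prox1 and at least 1 of Vwf, which encodes von Willebrand factor. It could hold at most 1 UMI of the lymphatic genes Lyve1, Reln and Pdpn together, at most 2 of Mmrn1, at most 1 of the arterial genes Gja5 and Sema3g together and fewer than 10 of Glycam1. Of the 11273 cells in the data, 99 met every limit, 32 of 6814 in the control library and 67 of 4459 in the Flcn iΔEC library. Levels of these 12 genes are therefore a description of the choice and not a result.

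The study asked what loss of folliculin, encoded by Flcn, does to endothelial cells after birth. Its single-cell data comprise a control library and a Flcn iΔEC library of mesenteric cells captured on CD31 beads. In Flcn iΔEC mice Cdh5-BAC-CreERT2 recombines a floxed Flcn in endothelial cells, with C57BL/6 given as the strain of both. Mice of both groups were given 40 µg of 4-hydroxytamoxifen on postnatal days 2, 3.5, 5 and 6.5 and were taken on day 8, and the cells of 3 mice were pooled in each library. The labels do not give the genotype of the controls. With 1 library per condition there was no replicate, no test was run, and all 95% intervals below cover counting error only.

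Lymphatic vessels first form when some venous endothelial cells begin to make Prox1 and leave the vein, and Prox1 is needed throughout life to hold the lymphatic state. Venous identity rests on Nr2f2 (COUP-TFII) and the receptor Ephb4, and veins and lymphatic vessels share the genes of intraluminal valves, such as Foxc2, Nfatc1, Gja4 and Cldn11. Folliculin keeps TFE3 and TFEB, transcription factors of the MiT/TFE family, in the cytoplasm, and without it they enter the nucleus and turn on lysosomal genes through short E-box motifs of the form CANNTG.

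Because such a motif is the known kind of target of the factors that folliculin restrains, the sequence just upstream of a Prox1 start is shown. Prox1 (ENSMUSG00000010175) is a protein-coding gene on the minus strand of chromosome 1, from 190118035 to 190170714 in GRCm38. The 250 bases before the first of its RefSeq starts (GRCm38.p6, chr1:190170828-190171077, minus strand) read 5′ to 3′ as follows, with each CANNTG match in capitals.
Prox1 upstream window: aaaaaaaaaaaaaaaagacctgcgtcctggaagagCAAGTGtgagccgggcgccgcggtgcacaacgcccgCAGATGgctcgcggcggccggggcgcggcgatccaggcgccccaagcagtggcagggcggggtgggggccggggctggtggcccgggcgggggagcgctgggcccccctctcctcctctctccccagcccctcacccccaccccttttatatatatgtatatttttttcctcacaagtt
Its 2 matches, CAAGTG and CAGATG, are not of the form CACGTG, and since CANNTG is its own reverse complement a search of either strand finds the same matches. Among all 32851 mouse windows of this length, 66.2% held a CANNTG and 6.02% a CACGTG, so a match of the looser form is common. A match of letters says nothing of binding, and the counts described here do not measure it. The other 3 marker genes are H19, an imprinted long noncoding RNA on chromosome 7 (142575529 to 142578143, minus strand), Cldn11, a claudin of tight junctions on chromosome 3 (31149920 to 31164324, plus strand), and Neo1, the netrin and repulsive guidance molecule receptor neogenin on chromosome 9 (58874687 to 59036441, minus strand). All 3 positions are in GRCm38, and the windows of Cldn11, Neo1 and the other Prox1 start held no CANNTG.

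Library totals were alike, at 64639756 UMIs in control and 60805779 in Flcn iΔEC, and 6 barcodes occurred in both libraries, none of them a Prox1+ venous-like cell. Scrublet called 142 control cells (2.08%) and 37 Flcn iΔEC cells (0.830%) doublets, which were kept, and 0 of the 99 cells were among them. Genes of the sex chromosomes separated the libraries. In the Prox1+ venous-like cells Xist, which silences an X chromosome in females, had no count in control and 862 CPM (a gene's share of the group's UMIs, scaled to 1e6) in Flcn iΔEC, and the Y-linked Ddx3y 97.2 and 0 CPM. Sex, genotype and library therefore cannot be told apart in any comparison of conditions below. Flcn itself was at 10.9 CPM in the control and 11.5 CPM in the Flcn iΔEC Prox1+ venous-like cells, but these reads come from the 3′ end of the transcript, which may lie outside the deleted part, so they do not check the deletion.

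The label was checked against marker genes. The 7 endothelial markers, which include Pecam1, Cldn5 and Erg, summed to 4832 CPM in the control and 5323 CPM in the Flcn iΔEC Prox1+ venous-like cells, and every one of the 99 cells held at least 5 of their UMIs. Nr2f2 was found in 31 of 32 control and 67 of 67 Flcn iΔEC cells (419 and 309.8 CPM) and Ephb4 in 31 and 67 (230.1 and 288 CPM). Lymphatic cells carried Nr2f2 too (352 CPM in Flcn iΔEC), and Ephb4 was found in 310 of 320 of them in Flcn iΔEC. Neither gene therefore separates venous from lymphatic cells. The apelin receptor gene Aplnr, a venous gene that the limits did not use, was found in 31 of 32 control and 43 of 67 Flcn iΔEC cells, against 7 of 320 Flcn iΔEC lymphatic cells, and the 43 were 34 of 41 cells with at most 1 H19 UMI and 9 of 26 with more. By this gene the venous label held for most cells but not for most of those with H19. Markers of other cell types were low but present. T cell markers summed to 27.8 and 9.03 CPM in control and Flcn iΔEC cells, B cell markers to 12.9 and 13.1 CPM, the leukocyte gene Ptprc to 58.5 and 9.85 CPM, mural markers to 5.95 and 16.8 CPM, myeloid markers to 1.98 and 0.821 CPM, mesothelial markers to 8.93 and 0.410 CPM, and fibroblast markers to 0 and 0.821 CPM. In a single Flcn iΔEC cell 11204 of its UMIs were of the hemoglobin genes Hba-a1 and Hbb-bs, against at most 3 in any control cell. Hemoglobin genes are therefore not described further, except where this cell is left out. Without cells that held 5 or more UMIs of any such list, 25 control and 58 Flcn iΔEC cells remained.

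As a share of the endothelial cells that passed the limits on UMIs, mitochondrial share, Cdh5 and cycle genes, Prox1+ venous-like cells made up 7.0% of 457 in control (4.84 to 9.74) and 9.04% of 741 in Flcn iΔEC (7.08 to 11.3). These intervals cover counting of cells within each library and not the spread between mice. Cells that met every limit but that on Prox1 numbered 157 in control and 191 in Flcn iΔEC, and are called venous cells here. Of these, 20.4% (14.4 to 27.5) in control and 35.1% (28.3 to 42.3) in Flcn iΔEC were Prox1+. A limit on raw UMIs is easier to pass for a deep cell, and the Prox1+ cells were deep, with a median of 24418.5 UMIs in control and 34232 in Flcn iΔEC, against 15405 and 17430 in venous cells with 0 or 1 Prox1 UMI. When every cell was thinned at random to 10000 UMIs before the limits were applied, a mean of 11.7 control and 47.1 Flcn iΔEC cells passed, 3.30% and 6.67% of the endothelial cells left. At 5000 UMIs the means were 5.4 and 23.1 cells, 1.37% and 3.99%.

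The control cells sat at the edge of the limit. Their Prox1 UMIs ran from 2 to 10 with a median of 2, and 20 of the 32 had exactly 2. In Flcn iΔEC cells they ran from 2 to 56 with a median of 9, with 11 of 67 at 2 and 35 above 6, a number that 1 control cell exceeded. With at least 3 Prox1 UMIs required, 12 control and 56 Flcn iΔEC cells remained. Just outside the limit, 19 control and 28 Flcn iΔEC venous cells had a single Prox1 UMI. The plot of Prox1 against depth shows this edge cell by cell.

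**Figure D1:**
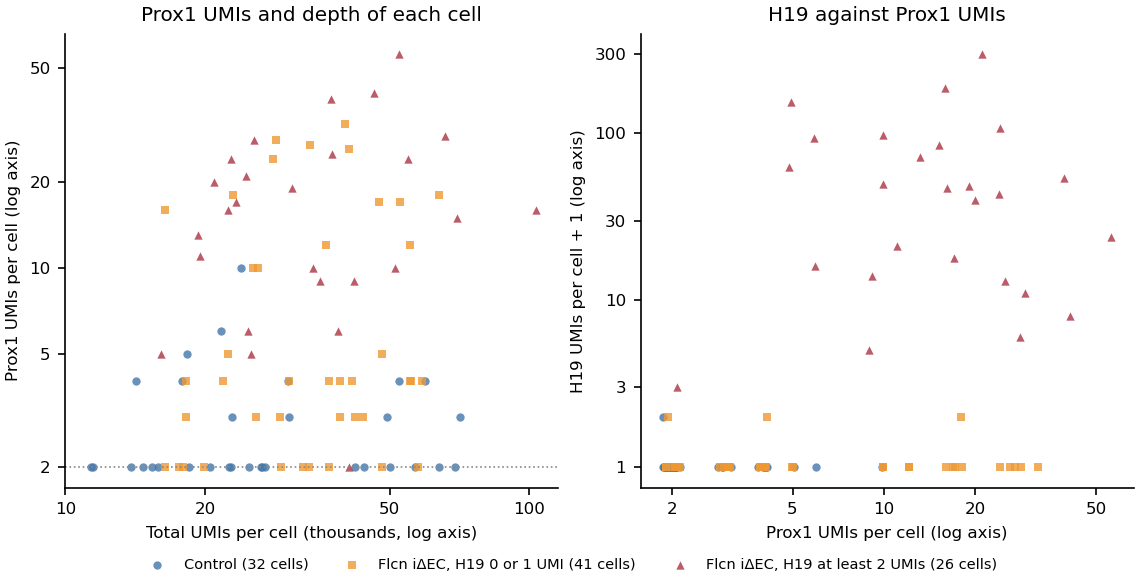
Each point is 1 of the 99 Prox1+ venous-like cells, by its Prox1 UMIs and total UMIs (left, both log axes, dotted line at the limit of 2) and by H19 UMIs plus 1 and Prox1 UMIs (right, both log axes, Prox1 values spread by up to 0.15 for legibility). The 32 control cells lie between 2 and 10 Prox1 UMIs with at most 1 H19 UMI, and the 26 H19+ cells are all of the Flcn iΔEC library.

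Since the limit on Prox1 fixes its level in the chosen cells, the 4 marker genes were also compared over all venous cells, whatever their Prox1. Prox1 stood at 31.3 CPM (25.7 to 37.6) in the 157 control and 169 CPM (157 to 180.2) in the 191 Flcn iΔEC venous cells. H19 stood at 5.03 CPM (2.98 to 7.94) and 332 CPM (317 to 349), Cldn11 at 38.0 CPM (31.9 to 44.9) and 163 CPM (152 to 174), and Neo1 at 8.93 CPM (6.11 to 12.6) and 127 CPM (117 to 137). For each of the 4 genes the intervals do not overlap, but they leave out the spread between cells and between mice. The 4 genes were named as markers with earlier results of these data known, so their difference is a description. Thinned to 5000 UMIs per cell, 12.7% of control and 27.8% of Flcn iΔEC venous cells held a Prox1 UMI (32.5% and 49.7% unthinned, at median depths of 16843 and 21961 UMIs). The same share in leukocytes (cells with Ptprc and no Cdh5), a type that should lack Prox1, was 0.760% and 0.802% (1.12% and 1.48% unthinned, at 7372 and 8081 UMIs). Thinning left out 6 control and 3 Flcn iΔEC venous cells and 549 and 154 leukocytes. For H19 the thinned shares of venous cells were 2.46% and 14.7%, for Cldn11 13.9% and 28.5%, and for Neo1 4.48% and 20.6%, against at most 0.917% for any of these 3 in leukocytes.

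Within the chosen cells the markers also differed between the libraries. Cldn11 ranged from 0 to 17 UMIs per control cell with a median of 1.5 and from 0 to 49 with a median of 7 in Flcn iΔEC cells, at 72.4 CPM (56.8 to 91.0) and 287 CPM (266 to 309), a ratio of 3.97 (3.11 to 5.12). Neo1 ranged from 0 to 4 with a median of 0 and from 0 to 58 with a median of 3, at 10.9 CPM (5.45 to 19.5) and 247 CPM (228 to 268), a ratio of 22.6 (12.6 to 45.6). Both ranges overlap between the libraries, since 10 control and 11 Flcn iΔEC cells had no Cldn11 UMI and 24 and 20 no Neo1 UMI. H19 had 1 count among all 32 control cells, against 1558 counts and 639 CPM (608 to 672) in the 67 Flcn iΔEC cells. Of the 3 genes H19, Cldn11 and Neo1, a control cell held 2 at most (7 of 32 cells), while 27 of 67 Flcn iΔEC cells held all 3. Lymphatic cells, defined below, held all 3 as well, in 130 of 320 cells of Flcn iΔEC and 12 of 82 of control. H19 alone was found in 52 of the 82 control lymphatic cells.

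H19 split the Flcn iΔEC cells. At least 2 H19 UMIs were found in 26 of 67, called H19+ here, with 2 to 296 UMIs and a median of 44, and the other 41 had 0 or 1. All 26 H19+ cells also held Cldn11 and Neo1, and 21 of them had over 6 Prox1 UMIs, against 18 and 14 of the 41 H19-low cells. None of the 32 control cells was H19+. As a share of endothelial cells, H19+ cells made up 3.51% of 741 in Flcn iΔEC (2.30 to 5.10). For control, with none among 457, the exact interval reaches 0.804%, and 3 cells would be 0.656%. As a share of the 32 chosen control cells the limit is far wider. Depth did not separate the groups, with medians of 34819 UMIs in H19+ and 33698 in H19-low cells. A single cell held 19% of the H19 counts. Across the 67 cells, with each gene taken as its share of the cell's UMIs, Spearman's rho with Prox1 was 0.60 for Cldn11 and for Nfatc1, 0.55 for Neo1, 0.42 for H19, −0.45 for Vwf and −0.53 for Aplnr. Prox1 and Vwf were used to choose the cells, which cut the range of both. In the 32 control cells rho was −0.05 for Cldn11, 0.10 for Nfatc1 and −0.30 for Neo1. It was −0.19 there for Vwf, −0.18 for Aplnr and 0.20 for H19, which a single control cell held. Total UMIs had a rho with Prox1 of −0.26 in Flcn iΔEC and −0.83 in control cells. These are descriptions of cells of 1 library per condition, and for pairs of genes both values of a cell are divided by the same depth.

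The limits also cut through H19+ cells. Among Flcn iΔEC cells that failed a single limit, 12 of the 13 with no Vwf UMI had at least 2 of H19. The same held for 11 of the 24 that failed the cycle genes and 6 of the 12 that failed Lyve1, Reln and Pdpn, but for 3 of the 124 that failed Prox1. Vwf stood at 451 CPM in H19+ and 1285 CPM in H19-low cells, and 5 Flcn iΔEC cells lay at the limit of 1 Vwf UMI. The H19+ group counted here is thus the part of a larger set of H19-rich cells that kept some Vwf and lacked cycle genes.

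H19+ cells also differed from H19-low cells of the same library in valve and venous genes. Of 6104 genes with at least 50 summed counts, 134 (2.2%) were at least 2-fold higher and 159 (2.6%) at least 2-fold lower in H19+ cells. Of 16 valve genes compared, 5, among them the marker Cldn11, were higher and 0 lower, with a median log2 ratio of 0.41 against 0.02 for all genes. Gja4, the gap junction protein connexin 37 of arteries and valves, stood at 441 CPM in H19+ and 70.2 CPM in H19-low cells, a ratio of 6.28 (5.05 to 7.87). Nfatc1, a transcription factor of valve formation, was 2.61-fold higher (2.21 to 3.08) and Foxc2, another, 2.76-fold (1.76 to 4.42). Flt4, the receptor of the lymphatic growth factor VEGF-C, stood at 64.0 and 21.3 CPM, a ratio of 3.00 (1.92 to 4.77). Thinned to 5000 UMIs, 25.4% of H19+ and 11.3% of H19-low cells held a Flt4 UMI. The same share was 17.8% in Flcn iΔEC venous cells with 0 or 1 Prox1 UMI, which lies between them. Igf2, the imprinted growth factor gene beside H19, was found in 23 of 26 H19+ and 3 of 41 H19-low cells, at 282 and 2.75 CPM.

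The venous list went the other way, with 0 of 13 genes higher and 3 lower in H19+ cells and a median of −0.67. Aplnr, the apelin receptor of veins, stood at 36.6 CPM in H19+ and 191 CPM in H19-low cells, a ratio of 0.192 (0.132 to 0.272), Cd34 at 24.4 and 129 CPM and Selp, the P-selectin of venous endothelium, at 21.3 and 75.0 CPM. Nrp1, a coreceptor of VEGF-A and semaphorins, had a ratio of 0.147 (0.0980 to 0.212). Nr2f2 and Ephb4 differed little, by ratios of 1.11 (0.958 to 1.28) and 1.17 (1.01 to 1.36). Matrix genes split, with 5 of 23 higher, among them the basement membrane collagen genes Col4a1 (4.29, 3.14 to 5.94) and Col18a1 (3.24, 2.83 to 3.72), and 8 lower, among them Mfap5 (0.117, 0.0491 to 0.239) and Eln, which encodes elastin (0.360, 0.344 to 0.377). B cell markers were seen in 12 of 26 H19+ and 2 of 41 H19-low cells, at 30.5 and 1.38 CPM, and mural markers in 2 and 12, at 2.03 and 26.8 CPM, and their part in these differences was not tested.

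**Figure D2:**
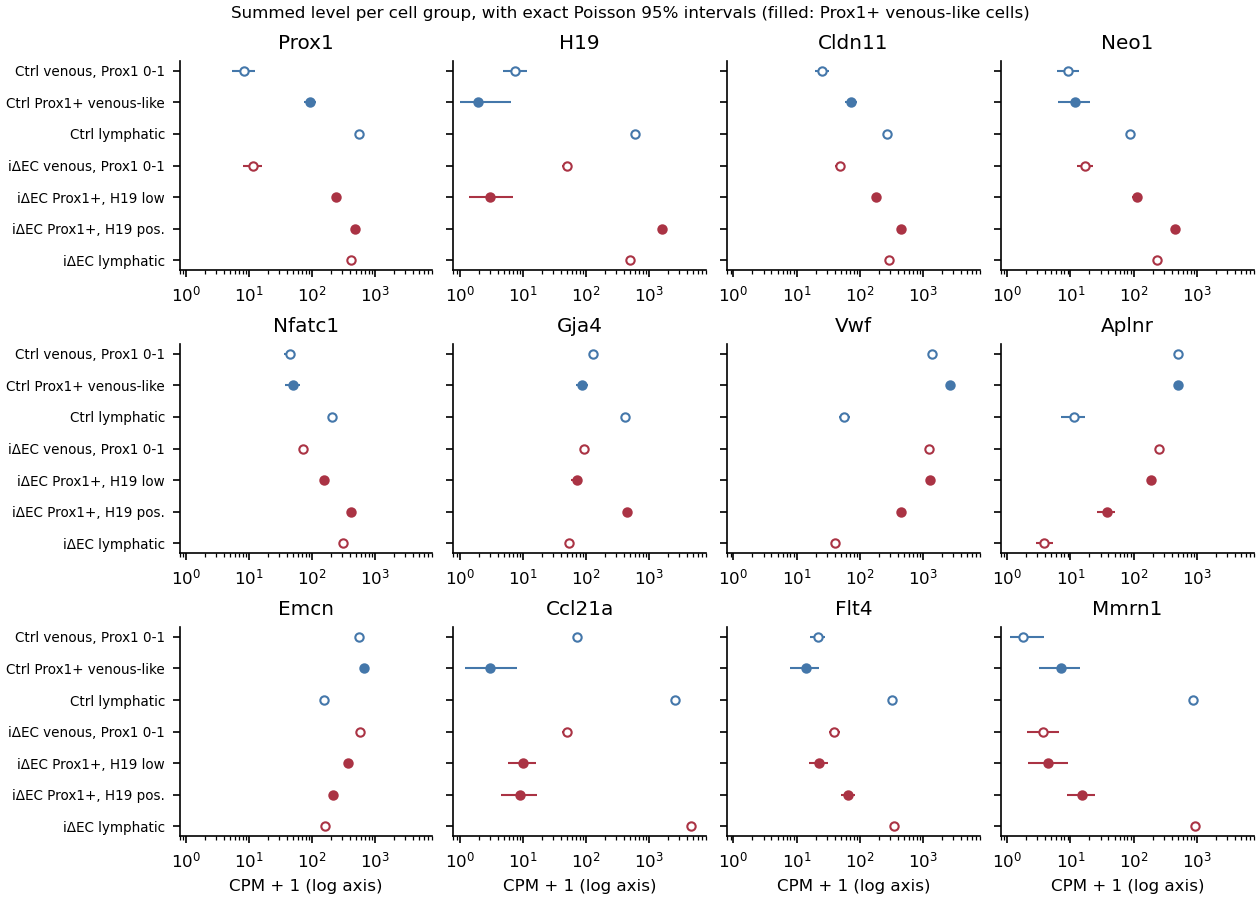
Summed level of 12 genes in 7 cell groups, as CPM plus 1 on a log axis with exact Poisson 95% intervals, blue for control and red for Flcn iΔEC, filled for Prox1+ venous-like cells. Ccl21a stands at 8.13 to 8.95 CPM in both H19 groups against 4558 CPM in Flcn iΔEC lymphatic cells, and Gja4 and H19 at 441 and 1579.8 CPM in H19+ cells against 70.2 and 2.06 CPM in H19-low cells.

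Compared with the 320 Flcn iΔEC lymphatic cells (endothelial cells within the limits on arterial genes and Glycam1 that had at least 2 Prox1 UMIs and either at least 2 UMIs of Lyve1, Reln and Pdpn together or at least 3 of Mmrn1), the 67 cells had summed levels of Cldn11 and Neo1 close to lymphatic ones but far less of the lymphatic effectors, the genes by which lymphatic vessels attract leukocytes, respond to VEGF-C and take up fluid. Of 10053 genes, 559 (5.56%) were at least 2-fold higher and 641 (6.38%) at least 2-fold lower than in lymphatic cells. Of 15 lymphatic effectors 0 were higher and 13 lower, with a median log2 ratio of −3.52 against 0.05 for all genes. Since Lyve1, Reln, Pdpn and Mmrn1 were used to choose the cells of both groups, the contrast in other lymphatic genes is a description. Summed over the 67 cells, Cldn11 (ratio 0.992, 0.911 to 1.08) and Neo1 (1.05, 0.956 to 1.15) stood at lymphatic levels. The median cell's level of Neo1 was 391 CPM in H19+, 18.98 CPM in H19-low and 131 CPM in lymphatic cells. For Cldn11 these medians were 462, 89.1 and 161 CPM. By these medians H19+ cells lay above lymphatic cells and H19-low cells below them. H19 stood at 1.29 times the lymphatic level (1.21 to 1.37), carried by the 26 H19+ cells, since the other 41 stood at 2.06 CPM. Ccl21a, the chemokine that draws dendritic cells, stood at 8.62 CPM against 4558 CPM. Flt4 stood at 38.6 and 343 CPM, Fgl2 at 189 and 3425 CPM, and the lymphatic transcription factors Maf at 12.3 and 221 CPM and Tbx1 at 12.7 and 216 CPM. In Prox1+ venous-like cells 13 of the 14 cells with a Tbx1 UMI were H19+.

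The venous list was higher in 7 of 15 genes and lower in 0, with a median of 0.95. Prox1+ venous-like cells needed a Vwf UMI and lymphatic cells did not, so this too is a description. Aplnr was 45.0-fold higher (29.9 to 70.7), Selp 46.8-fold (24.6 to 99.8) and Bmp4 8.67-fold (7.46 to 10.1). Genes in neither supplementary gene table of the study were ranked if they had at least 50 CPM. No Prox1+ venous-like cell could hold over 15% of that group's counts, but lymphatic cells were not limited in this way. The highest ratios over lymphatic cells were those of Gda, a guanine deaminase (37.8, 22.6 to 67.6), and Ptgis, the prostacyclin synthase of blood vessels (29.1, 18.8 to 47.0). Mxra8 (6.99), the imprinted transcription factor gene Plagl1 (6.04), Fam101b (5.51) and Tmcc3 (5.24) followed. Ptgis was found in 49 of 67 Prox1+ venous-like cells and 7 of 320 lymphatic cells. The lowest were Igfbp5, with no count against 64.8 CPM in lymphatic cells, the class I gene H2-Q7 (0.0704), which belongs to a family of near-identical copies and is uncertain, Cdc42ep2 (0.121), the protease inhibitor gene Cst6 (0.138), Abi3bp (0.148) and Clu, which encodes clusterin (0.154). Igfbp5 was seen in 13 of the 320 lymphatic cells and Clu in 87.

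The 124 Flcn iΔEC venous cells with 0 or 1 Prox1 UMI served as the venous reference. Of them 28 held a single Prox1 UMI. Of 8436 genes, 178 (2.11%) were at least 2-fold higher and 388 (4.6%) at least 2-fold lower in the 67 Prox1+ cells. Neo1 was 15.5-fold higher (11.3 to 21.7), H19 13.2-fold (10.99 to 15.9) and Cldn11 6.01-fold (4.96 to 7.32). As markers of the chosen cells, these genes give a description. The H19 value was carried by the 26 H19+ cells. Among the 41 H19-low cells 3 held H19, with at most 1 UMI, against 9 of the 124 reference cells, with up to 60. Of 19 valve genes 3 were higher and 0 lower, with a median of 0.28 against −0.01 for all genes, and of 15 tubulin and microtubule genes 4 and 0, with a median of 0.33. The latter were Tubb2b (4.54, 2.76 to 7.81), Tuba1a (3.49, 3.20 to 3.82), Stmn1, which encodes the microtubule destabilizer stathmin (3.15, 2.86 to 3.47), and Tubb2a (2.93, 2.43 to 3.55). Among 7777 genes compared in the same way in control cells, against their own 125 venous cells with 0 or 1 Prox1 UMI, 125 (1.61%) were at least 2-fold higher and 296 (3.81%) lower, and the same 4 genes had ratios of 1.04, 1.28, 1.22 and 1.35. Plat, the tissue plasminogen activator, was 6.02-fold higher (5.09 to 7.16) in Flcn iΔEC and 1.25-fold (0.760 to 2.02) in control Prox1+ cells. With the reference low in capillary genes described below, the log2 ratio was 2.80 for Neo1, 2.78 for H19, 1.82 for Cldn11, 1.26 for Plat, 1.86 for Tubb2a, 1.66 for Tuba1a, 1.34 for Stmn1 and 0.65 for Tubb2b, which was then under 2-fold.

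Among the valve genes, Nfatc1 stood at 258 CPM in Prox1+ and 72.1 CPM in the other Flcn iΔEC venous cells, a ratio of 3.57 (3.03 to 4.23), and Gja4 at 219.9 and 93.3 CPM, a ratio of 2.36 (2.02 to 2.75). For Gja4 the H19-low cells, at 70.2 CPM, stood below the reference. In control cells the ratios of these genes were 1.13 (0.788 to 1.59) and 0.683 (0.533 to 0.866). Foxc2 had ratios of 1.92 (1.35 to 2.78) in Flcn iΔEC and 2.01 (1.27 to 3.16) in control cells, but a log2 ratio of 0.12 in Flcn iΔEC cells with the reference low in capillary genes. The matrix gene Col18a1 was 5.0-fold higher (4.31 to 5.83) in Flcn iΔEC and 1.12-fold (0.918 to 1.36) in control cells.

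Of 17 imprinted genes 4 were higher and 2 lower, with a median of −0.02. Igf2 had a ratio of 6.22 (4.58 to 8.61) in Flcn iΔEC and of 0.268 (0.146 to 0.457) in control cells. The Flcn iΔEC value was carried by the 26 H19+ cells at 282 CPM, since the 41 H19-low cells stood at 2.75 CPM, below the 18.6 CPM of the reference. For the long noncoding RNA Meg3 the ratios were 2.72 (2.46 to 3.01) and 2.83 (2.44 to 3.28). The ratio of Meg3 lay above 1 in both libraries. Of 15 venous genes, 0 were at least 2-fold higher and 2 lower, with a median of −0.38. Aplnr had a ratio of 0.520 (0.453 to 0.596) in Flcn iΔEC and 1.01 (0.908 to 1.12) in control cells, and Ephb4 1.73 (1.53 to 1.95) in Flcn iΔEC cells. With the reference low in capillary genes described next, the log2 ratios in Flcn iΔEC cells were 1.64 for Nfatc1, 1.66 for Col18a1, 1.22 for Gja4, 1.49 for Igf2, 0.55 for Meg3, 0.61 for Ephb4 and −0.65 for Aplnr.

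**Figure D3:**
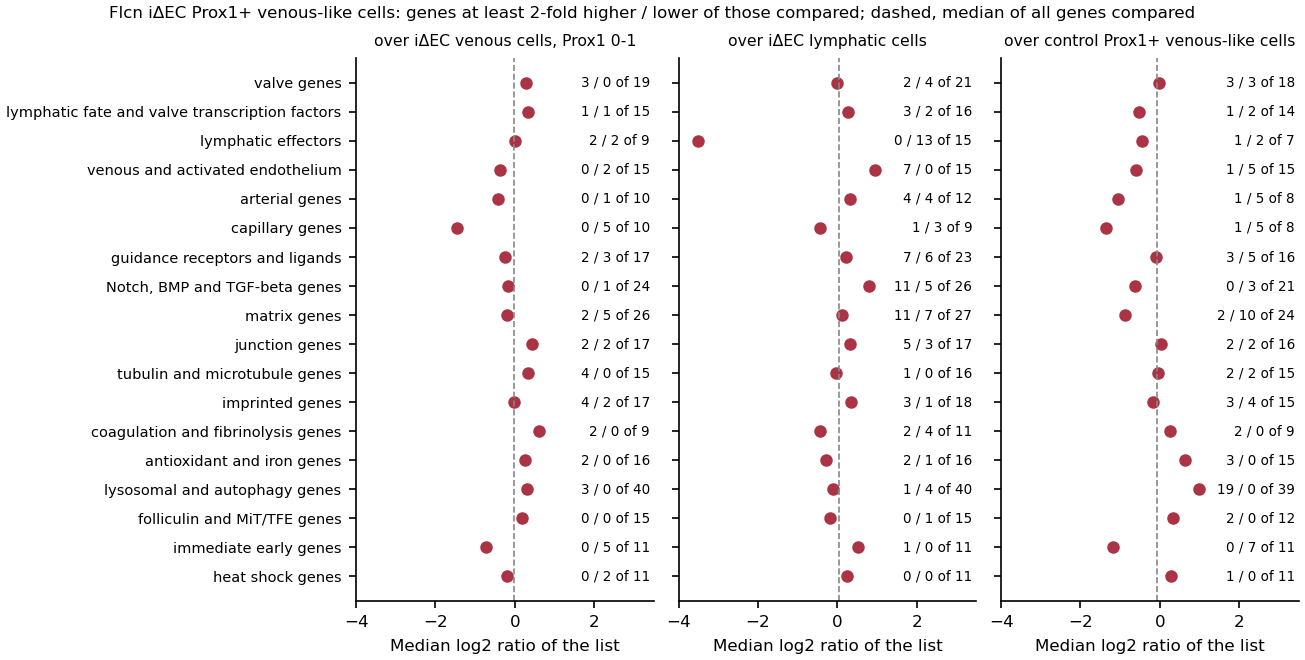
Median log2 ratio of 18 gene lists in Flcn iΔEC Prox1+ venous-like cells over 3 references, with the number of genes at least 2-fold higher and lower of those compared, and the median of all genes as a dashed line. Lymphatic effectors lie at −3.52 against lymphatic cells, and lysosomal and autophagy genes at 0.99 against control cells, with 19 of 39 higher and 0 lower.

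The reference cells were not all alike. They held capillary genes, with Rgcc at 227 CPM, Gpihbp1, the lipoprotein lipase carrier of capillaries, at 151 CPM, Esm1 at 90.7 CPM and Col15a1 at 61.1 CPM, against 26.7, 30.4, 0 and 1.64 CPM in Prox1+ cells, and 5 of 10 capillary genes were lower with a median of −1.46. With the 42 reference cells that held at most 1 UMI of Rgcc, Car4, Gpihbp1 and Cd36 together, 175 genes were higher, 109 of them among the 178, and 120 lower, 50 of them among the 388. Genes that no longer reached the minimum of summed counts with these 42 cells, among them Esm1, dropped out and could not count as shared. This bears most on lower genes, whose counts lie mainly in the reference. The overlaps therefore cannot show whether lower or higher genes depend more on the choice of reference.

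The study's supplementary gene tables list genes from its own comparisons of Prox1+ venous cells with venous and with lymphatic cells. A gene in neither table is thus one that those comparisons do not list. Among all 8436 genes, 178 (2.11%) were higher and 388 (4.6%) lower, of which the 514 listed genes gave 93 and 37. Of the 7922 genes compared here that are in neither table, 85 were higher and 351 lower. Higher genes were thus rarer among unlisted genes than among all genes, while lower genes were about as common. The 15 highest unlisted genes were taken from those with at least 50 CPM of which no Prox1+ cell held over 15% of that group's counts. Reference cells were not limited in this way. Adamts5, a protease that cleaves the proteoglycans aggrecan and versican, led them. It stood at 190.0 CPM against 42.1 CPM, a ratio of 4.51 (3.66 to 5.6), and was found in 60 of 67 Prox1+ cells and 44 of 124 others. Ttc9 followed at 3.62 (2.49 to 5.38), and Gdf15, a stress-induced cytokine, at 3.31 (3.01 to 3.64). Nudt4 (2.78), the homeobox gene Hoxd8 (2.77), Atp6v1b2, a subunit of the proton pump that acidifies lysosomes (2.56), the cationic amino acid transporter gene Slc7a1 (2.39), Agfg2 (2.37) and Lrrc32, which presents latent TGF-beta on the cell surface (2.33), came next. The remaining 6 were the hyaluronidase gene Hyal2 (2.19), the hedgehog ligand gene Dhh (2.14), Car8 (2.13), the lipopolysaccharide-binding protein gene Lbp (2.12), Mras (2.09) and Ehd1 (2.08).

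Against the reference low in capillary genes, all 15 kept a ratio above 1, and 7 of them stayed at 2-fold or more. These were Adamts5 (log2 ratio 1.92), Ttc9 (1.42), Mras (1.32), Nudt4 (1.28), Slc7a1 (1.07), Atp6v1b2 (1.05) and Lrrc32 (1.02), while Car8 (0.37), Lbp (0.59), Dhh (0.61) and Agfg2 (0.63) had the lowest values. In control Prox1+ cells over their own reference, 5 of the 15 were at least 2-fold higher, namely Adamts5 at 2.81 (2.18 to 3.63), Car8 at 2.58 (2.10 to 3.17), Mras at 2.32 (1.87 to 2.87), Ttc9 at 2.30 (0.826 to 6.29) and Lbp at 2.19 (1.91 to 2.52). For Ttc9 the interval includes 1. Gdf15 differed most between libraries, with 9.92 CPM in the control and 719.7 CPM in the Flcn iΔEC Prox1+ cells, a ratio of 72.6 (39.4 to 152), and 11.7 and 217 CPM in venous cells with 0 or 1 Prox1 UMI.

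The 10 lowest by the same minimums were Il22, Esm1, Vwa1, Nr4a1, Socs3, Rgs2, Hspa1a, Igfbp7, Pcdh17 and Fosl2. Il22, a cytokine gene of lymphoid cells with a near-identical copy that makes its count uncertain, had no count against 149.5 CPM, and Esm1, a gene of endothelial tip cells, no count against 90.7 CPM. Ptprc stood at 9.85 CPM in Prox1+ cells and 44.8 CPM in the reference, and its part in the value of Il22 was not tested. Vwa1 had a ratio of 0.0970 (0.0518 to 0.168), the nuclear receptor gene Nr4a1 0.214 (0.175 to 0.261) and Hspa1a, an inducible heat shock protein gene, 0.250 (0.225 to 0.277). Against the reference low in capillary genes, Nr4a1 (log2 ratio −1.14), Hspa1a (−1.97) and Fosl2 (−1.46) remained lower, whereas Igfbp7 (0.49) and Pcdh17 (0.13) were higher. Nr4a1 and Fosl2 are genes that respond within minutes to stimulation, as do those of the immediate early list. Of that list 0 were higher and 5 of 11 lower, with a median of −0.73. Against the reference low in capillary genes, its members Fos (−0.78), Fosb (−0.60) and Junb (−0.58) were under 2-fold.

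**Figure D4:**
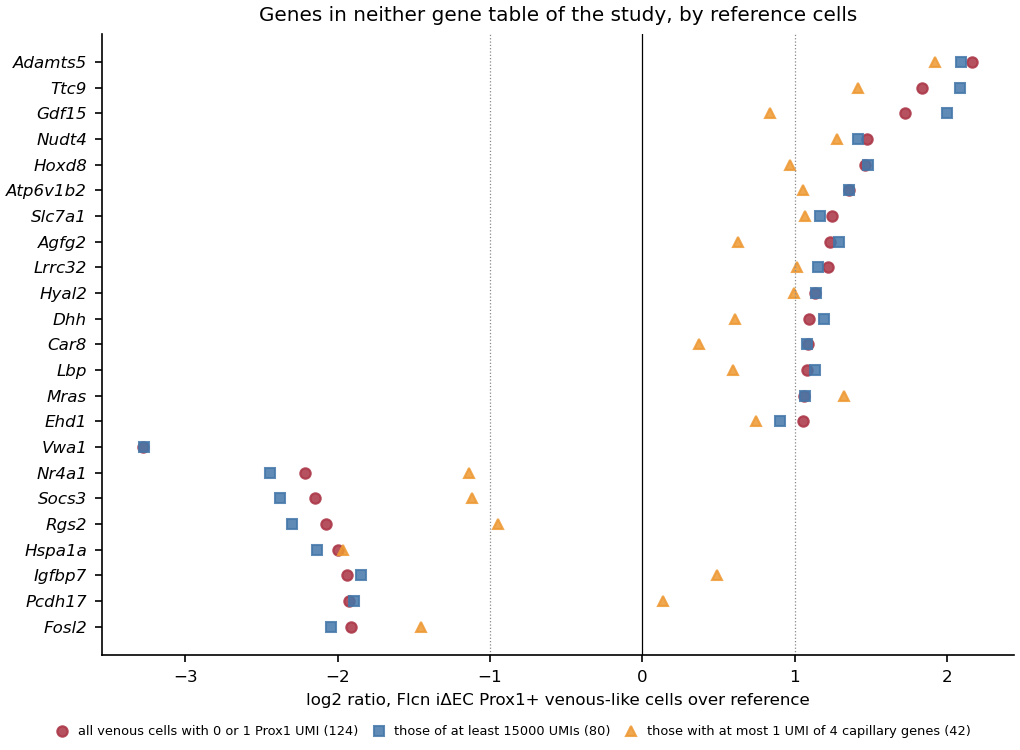
Log2 ratio of 23 genes found in neither gene table of the study, for Flcn iΔEC Prox1+ venous-like cells over 3 sets of venous cells with 0 or 1 Prox1 UMI, with dotted lines at 2-fold. The 15 higher genes stay above 0 with every reference, and Igfbp7 and Pcdh17 move from −1.94 and −1.93 to 0.49 and 0.13 with the reference low in capillary genes.

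Set against the 32 control cells, the 67 Flcn iΔEC Prox1+ venous-like cells had more of the lysosomal genes and less of the matrix, capillary and immediate early genes. Of 7333 genes, 305 (4.16%) were at least 2-fold higher and 460 (6.27%) at least 2-fold lower. Of 39 lysosomal and autophagy genes 19 were higher and 0 lower, with a median log2 ratio of 0.99 against −0.07 for all genes. Cd63, a tetraspanin of late endosomes and lysosomes, was at 183 CPM in the control and 1876 CPM in the Flcn iΔEC cells, a ratio of 10.2 (8.82 to 11.9), and ran from 11 to 286 UMIs in the Flcn iΔEC cells. Atp6v1b2 was 3.97-fold higher (2.84 to 5.71), Ctsa, which encodes a protective carboxypeptidase of the lysosome, 3.17-fold (2.39 to 4.27) and Hexa, a subunit of beta-hexosaminidase, 2.81-fold (2.26 to 3.52). Gpnmb, a glycoprotein of lysosomes, had no count in control cells and stood at 21.7 CPM in Flcn iΔEC cells. With 3 counts taken as the upper limit for control cells, it was at least 7.31-fold higher.

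The lysosomal difference was also seen in cells with little Prox1 or H19. In venous cells with 0 or 1 Prox1 UMI, 12 of 39 of these genes were at least 2-fold higher in Flcn iΔEC and 0 lower, with a median of 0.85 (2.26% and 3.17% of 8768 genes), and in the cells with under 2 H19 UMIs 18 of 37 and 0, with a median of 0.98 (3.24% and 5.44% of 6319 genes). Of 12 folliculin and MiT/TFE genes 2 were higher and 0 lower. They were Fnip2, which encodes a partner of folliculin (2.84, 1.61 to 5.38), and the Rag GTPase gene Rragc (2.46, 1.80 to 3.42). Tfe3 (1.01, 0.637 to 1.65) and Tfeb (0.761, 0.483 to 1.22) had intervals that include 1.

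**Figure D5:**
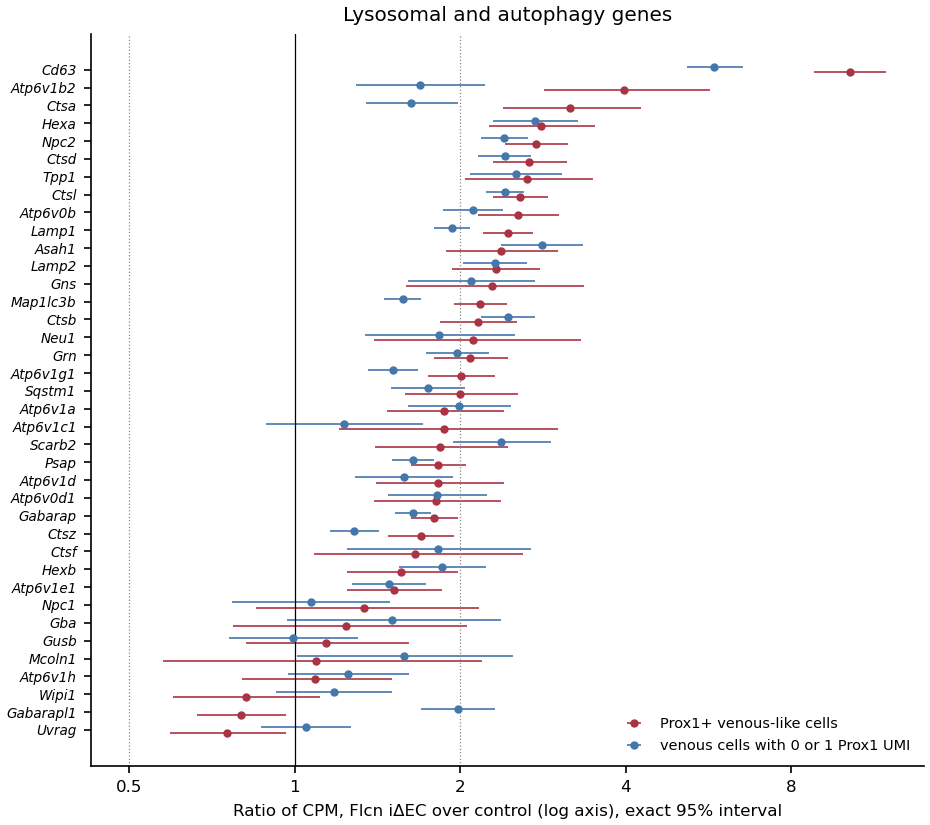
Ratio of CPM, Flcn iΔEC over control, for lysosomal and autophagy genes on a log axis with exact 95% intervals, red for Prox1+ venous-like cells and blue for venous cells with 0 or 1 Prox1 UMI, with dotted lines at 2-fold. Cd63 lies at 10.2 and 5.80 and Atp6v1b2 at 3.97 and 1.69, and most genes lie to the right of 1 in both sets of cells.

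Among genes with at least 50 CPM in which no single cell held over 15% of a group's counts, the highest ratios over control cells, sex-linked genes apart, were those of Cd24a, a cell surface glycoprotein gene (13.1, 10.2 to 17.2), Cd63, Ccdc3 (5.71, 4.44 to 7.45), Nfatc1 (5.30, 3.96 to 7.24), Apoe, which encodes apolipoprotein E (4.9, 4.44 to 5.41), and Nqo1, a quinone reductase of the oxidative stress response (4.87, 3.23 to 7.64). Cd24a stood at 61.5 and 808 CPM and was found in 21 of 32 control and all 67 Flcn iΔEC cells. Cd24a and Apoe were also 8.58-fold and 5.47-fold higher in venous cells with 0 or 1 Prox1 UMI, against 1.67-fold (1.32 to 2.13) for Nfatc1. Plat had a ratio of 13.9 (9.50 to 21.2) in Prox1+ and 2.89 (2.12 to 4.00) in the other venous cells.

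The lowest ratios were those of Cdc42ep3 (0.137, 0.116 to 0.161), Rab27b, a small GTPase of secretory vesicles (0.140, 0.112 to 0.175), Myrip, which links Rab27 proteins to the cytoskeleton (0.156, 0.100 to 0.236), Ccdc68 (0.149), the transcription factor gene Lyl1 (0.153) and Fndc1 (0.159). Levels of Rab27b were 316 CPM in the control and 44.3 CPM in the Flcn iΔEC cells, and those of Myrip 84.3 and 13.1 CPM. In the other venous cells the ratios were 0.435 for Rab27b, 0.540 for Myrip and 0.316 for Cdc42ep3. Of 24 matrix genes 2 were higher and 10 lower, with a median of −0.87, and Eln, the most abundant, stood at 13789 and 4909 CPM. Of 8 capillary genes 1 was higher and 5 lower, among them Fabp4 (0.220, 0.211 to 0.229).

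Immediate early genes were lower in 7 of 11 and higher in 0, with a median of −1.19. Fos stood at 1219 and 419 CPM, Junb at 1387 and 509 CPM, Fosb at 689 and 204 CPM and Ier3 at 767 and 220.3 CPM. In venous cells with 0 or 1 Prox1 UMI the counts were 0 and 0 of 12, with a median of −0.35. Of 11 heat shock genes 1 was higher and 0 were lower, with a median of 0.28. Such genes respond to cell isolation, and the handling of the libraries cannot be told apart from genotype. The leukocyte gene Ptprc had 58.5 CPM in the 32 control and 9.85 CPM in the 67 Flcn iΔEC cells, and without cells that held 5 or more UMIs of another type's markers 279 genes were higher and 381 lower, 228 and 311 of them among those above.

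Over 8 groups of cells, the genes whose log2 CPM ran most like that of Prox1 were Pdlim4 (r = 0.979) and Anxa2 (r = 0.978), an annexin that binds Plat. This describes groups that share their libraries and were in part chosen by limits on Prox1, which set its level. The level of Anxa2 was 718 CPM in the 32 control and 856 CPM in the 67 Flcn iΔEC Prox1+ venous-like cells, against 504 and 466 CPM in venous cells with 0 or 1 Prox1 UMI.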

How the data were processed

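CD31+ cells of the mesentery were profiled with Chromium Single Cell 3′ v3 in 1 library per condition, each pooled from 3 mice. The deposited values are raw UMI counts per gene and cell, made by the authors with Cell Ranger 3.0 on mm10 per the submitters' processing notes, for 28692 genes. Depth was 64639756 UMIs in control and 60805779 in Flcn iΔEC.

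Cells were chosen by UMI limits and counts summed per group and scaled to CPM. Levels carry exact Poisson, ratios exact conditional and shares exact Clopper-Pearson 95% intervals, which cover counting error only. PCR duplicates were collapsed to UMIs. Ratios were compared for genes with at least 50 summed counts, and a log2 ratio used a prior count of 1. With 1 library per group no test was run, and genes at least 2-fold apart were counted.

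Named genes were those of the limits, the markers, Flcn and sex-linked genes, at most 4 per gene list and members whose textbook role a paragraph is about. The 2 genes most like Prox1 and the extreme ratios of genes with at least 50 CPM were added. For the extreme ratios no Prox1+ venous-like cell held over 15% of its group's counts, while other reference cells were not limited. The members, gene lists and rules were chosen with earlier results of these data known. The study's supplementary tables hold the authors' own comparisons of 550 genes, of which only the gene names were used. Doublets were called with Scrublet (scanpy 1.11.5) and kept. Thinning drew 100 random subsets for counts of cells. Windows upstream of starts came from RefSeq (GRCm38.p6) for 3 of the 4 marker genes. Scripts used Python 3.11.15, numpy 2.4.6, scipy 1.17.1 and matplotlib 3.10.9, and were tested on simulated data. The alternatives tried were other limits on Prox1, Vwf, Mmrn1 and depth, other reference cells, the mean of the cells' own CPM, other scalings and count minimums, and leaving out doublets.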

Additional observations from a re-analysis of the deposited data

Results flagged for a closer look

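In 7 named genes the ratio of Prox1+ venous-like cells over venous cells with 0 or 1 Prox1 UMI lay above 1 in one library and below 1 in the other, with counting intervals that exclude 1. The difference was not tested, since each condition is 1 library. Igf2 had ratios of 6.22 in Flcn iΔEC and 0.268 in control, a difference of 4.43 on the log2 scale, and Gja4 of 2.36 and 0.683, a difference of 1.77. For both genes the Flcn iΔEC direction was carried by the 26 H19+ cells. The 41 H19-low cells stood at 2.75 CPM of Igf2 against 18.6 CPM in the reference and at 70.2 against 93.3 CPM of Gja4, the same direction as in control cells. The other 5 were lower in Flcn iΔEC and higher in control Prox1+ cells. The heat shock gene Hspa1a had ratios of 0.250 and 1.52 (difference −2.61), the junction gene Jam2 0.427 and 1.57 (−1.87), the kinase gene Bmx 0.659 and 2.10 (−1.67), Emcn, which encodes endomucin, 0.541 and 1.19 (−1.14), and Smad7, an inhibitor of TGF-beta signalling, 0.639 and 1.25 (−0.97). The Igf2 value in control rests on 15 counts.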

How the results depend on the processing

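Of 62 recomputed cell and gene counts, 51 stayed within 1.5 times their value and 11 did not. Requiring 3 Prox1 UMIs left 12 control cells, and thinning to 10000 and 5000 UMIs left means of 11.7 and 5.4 control cells, and at 5000 UMIs 23.1 Flcn iΔEC cells. Without a minimum count, 1503 genes were higher and 1716 lower than in venous cells with 0 or 1 Prox1 UMI, 2202 and 1257 than in lymphatic cells, and 789 and 2899 than in control cells, because low counts then enter. It also moved the median log2 ratio of all genes by 0.105 against lymphatic cells and by −0.20 against control cells. The other settings moved it by at most 0.050.

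A few alternatives were chosen after seeing the data, namely deeper cells, a reference low in capillary genes, cells without markers of other types and cells with under 2 H19 UMIs. With the reference low in capillary genes 120 genes were lower, and the log2 ratios of Igfbp7 (0.49), Pcdh17 (0.13), Rgcc (2.19), Gpihbp1 (1.38) and Col4a1 (0.10) turned positive, which for Rgcc and Gpihbp1 follows from choosing that reference by those genes. Without cells holding markers of other types, the ratio of Hbb-bs turned to −0.42 against venous and −0.028 against lymphatic cells, as the cell that held most hemoglobin counts is left out. Over control cells, Col4a1 turned to 0.76 with at least 3 Prox1 UMIs and Gja4 to −0.32 in cells with under 2 H19 UMIs, and the cause was not tested. Of the recomputed ratios of named genes, 1606 stayed within their counting interval, 255 moved beyond it and 9 that were at least 2-fold apart turned sign, while turns of smaller ratios are counted among the others. No paired analysis was possible because each condition has 1 library and the labels carry no replicate numbers, and for the same reason no replicate could be left out. Control values rest on 32 cells, 20 of them at the limit of 2 Prox1 UMIs.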
